A study of Gallus gallus with 9 samples.

Results

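Nearly unmethylated regions of the sperm genome were examined in adult chickens. They were chosen by their measured level: every row of the deposited table of regions whose mean methylation over the 9 libraries was under 5 percent was kept, with spreadsheet errors counted as missing. The rule found 1190 of 6428 listed regions (18.5%). The other 5238 regions were at 5 percent or more. Mean level over all libraries was therefore fixed by the rule, and the table itself had been made for the comparison of the groups, so levels and differences at these regions are given as a description.

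Methylation of sperm DNA was measured by RRBS (reduced representation bisulfite sequencing), which enriches CpG-rich DNA with a restriction digest and reads a cytosine that resists bisulfite as methylated. F0EHC males (n = 4) came from eggs that spent 12 h of each day from embryonic day 7 to 16 at 39.5 °C with humidity at 65% (embryonic heat conditioning), and F0C males (n = 5) from eggs kept throughout at 37.8 °C with humidity at 56%. All were Cobb broilers reared alike to sexual maturity, and each library held the sperm of 1 bird. Temperature and humidity were raised together, so they cannot be told apart. A pair of incubators was used, and whether each group had its own is not given in the sources used here. The tables hold no expression values, so the labelled cell type could not be checked against marker genes. Read depth behind the region percentages is unknown. At the single cytosines that the study listed, the median library depth was 37 to 50 reads.

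In vertebrates most CpGs of the sperm genome are methylated, and the stretches that escape are mainly CpG islands, often at promoters and over clusters of developmental regulators. DNA methyltransferases add the mark, and loss at a CpG can be passive, by copying without them, or active, by TET enzymes. A percentage at a region is the share of reads that carried the mark, averaged over its cytosines, so a low value can hold a single cytosine that is methylated in many more reads.

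The regions were low in most libraries and not in every one. Of the 10697 library values, 81.4% were under 5 percent and 9.19% were exactly 0. In 899 regions every library was under 10 percent, whereas 287 regions had a library over 10 percent and 15 had one over 20 percent. In the remaining 4 the highest library was at 10 percent exactly. The median level was 2.68%, between 1.13% and 4.99%. The 3 regions just inside the limit had levels of 4.99%, 4.98% and 4.97%, and the 3 just outside had 5.01%, 5.01% and 5.02%. Their differences between the groups were 3.16, −2.64 and −4.24 percentage points inside and 2.64, 4.02 and 2.76 percentage points outside, with both signs inside it.

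More of these regions were more methylated in F0EHC sperm than in F0C sperm. Of the 1190 regions, 798 (67.1%) had the higher mean in F0EHC and 392 the lower. Over all listed regions, 56% were higher and 44% lower in F0EHC, and among the 5238 regions at 5 percent or more the share higher was 53.5%. Differences were small in absolute terms, as the limit requires. Their median was 2.92 percentage points in the regions higher in F0EHC and −2.80 in the regions lower, and the extremes were 8.40 and −6.81. A difference of at least 4 points was seen in 97 regions higher and 26 lower. The limit itself is not even-handed, because 4 libraries stand against 5: a region at 0 in all F0C libraries could reach a difference of 11.25 points, and a region at 0 in all F0EHC libraries only −9. With both groups weighted equally in the rule, the counts were 786 higher and 402 lower (66.2% higher).

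**Figure D1:**
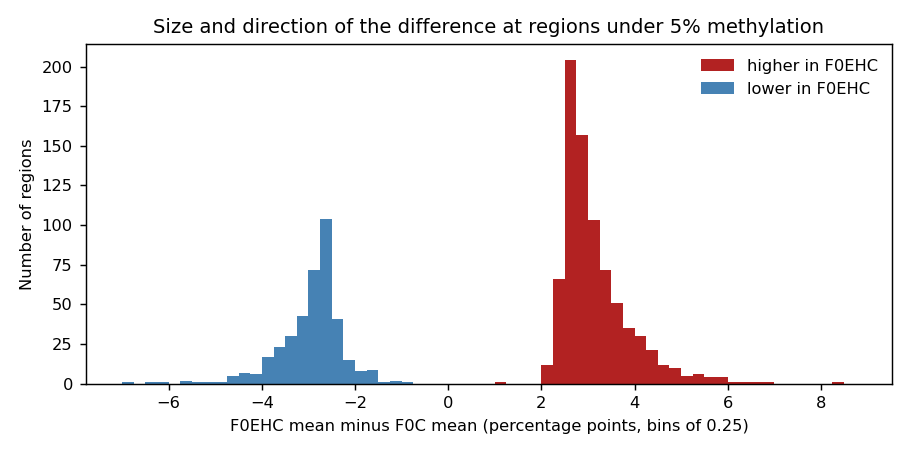
Number of regions under 5% methylation by the F0EHC mean minus the F0C mean, in percentage points, with regions higher in F0EHC in red and lower in blue. The 798 higher regions outnumber the 392 lower ones, and the gap around 0 reflects the table, which lists few small differences.

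The table listed hardly any region with a small difference. Of all 6428 regions only 274 differed by less than 2.5 points, and of the nearly unmethylated ones 156. Regions of like level with a smaller difference were not analysed here, so the counts say nothing of how many unmethylated regions stayed alike between the groups.

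Mean level over the 1190 regions was 3.60, 3.70, 3.68 and 2.94% in the 4 F0EHC libraries, against 2.59, 2.19, 2.70, 1.88 and 2.32% in the 5 F0C libraries. Every F0EHC library lay above every F0C library, and the closest were F0EHC replicate 4 and F0C replicate 3. The group means were 3.48 ± 0.364% in F0EHC (SD, n = 4) and 2.34 ± 0.326% in F0C (SD, n = 5), a difference of 1.14 points. No p is given, since the regions were listed for this contrast. The regions at 5 percent or more averaged 42.0 ± 1.62% in F0EHC and 41.4 ± 1.39% in F0C, so their difference was smaller than the spread between birds.

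The 798 higher and the 392 lower regions were sorted by the sign of the difference, and values stop at 0, so the group with the lower mean in each set lies nearer to 0 by construction and its smaller spread and more frequent zeros are given as a description only. Over the 798 higher regions, the F0EHC libraries averaged 4.70, 4.89, 4.82 and 3.70%, and the F0C libraries 1.67, 1.36, 1.53, 1.09 and 1.26%. Over the 392 lower regions, the F0EHC libraries averaged 1.36, 1.28, 1.37 and 1.38%, and the F0C libraries 4.46, 3.87, 5.09, 3.49 and 4.48%. The SD over birds in the higher regions was 0.555 points for F0EHC and 0.225 for F0C, and in the lower regions 0.0470 for F0EHC and 0.615 for F0C. Among the 798 higher regions a single F0EHC library was at exactly 0 in 20 to 36 of them, and a single F0C library in 57 to 155. Among the 392 lower regions the ranges were 54 to 70 in F0EHC and 11 to 26 in F0C.

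**Figure D2:**
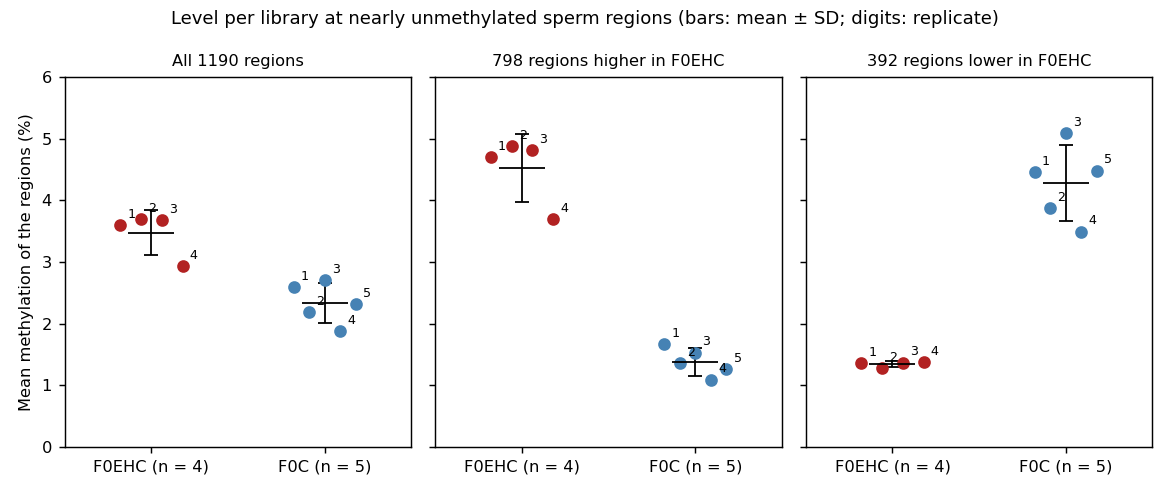
Mean methylation of the regions in percent for each library, over all 1190 regions (left), the 798 higher in F0EHC (middle) and the 392 lower (right). Points are birds with their replicate number and bars show mean ± SD, and F0EHC replicate 4 is the lowest F0EHC bird over all 1190 and over the higher regions.

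No single F0EHC bird held most of the top values in the higher regions. In regions sorted by sign the top value falls mostly in the higher group by construction, so only the split among its birds is described. F0EHC replicates 1 to 4 were the highest of the 9 libraries in 219, 231, 207 and 137 of the 798 higher regions (27.4, 28.9, 25.9 and 17.2%), and F0C replicates 1 and 3 in 1 and 3 of them. F0EHC replicate 4 therefore held the top value least often of the F0EHC birds. Among the 392 lower regions, F0C replicates 1 to 5 were the highest in 86, 58, 111, 50 and 87 (21.9, 14.8, 28.3, 12.8 and 22.2%). Leaving out each library in turn, with the same 1190 regions, gave between 66.1% higher (without F0EHC replicate 2) and 67.5% higher (without F0C replicate 3 or 5). The regions were listed for this contrast from all 9 birds, with few small differences. Leaving out 1 bird could therefore change few signs, and the shares are no independent evidence. The difference of the mean level stayed between 1.03 points without F0C replicate 4 and 1.32 points without F0EHC replicate 4.

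Single regions leaned on single birds far more often than the total did. In 216 of the 798 higher regions (27.1%) the difference shrank by over 50 percent or changed sign once 1 library was left out, and in 26 the sign changed. The library was F0EHC replicate 1 in 58, replicate 2 in 68, replicate 3 in 65 and replicate 4 in 25. In the 392 lower regions the number was 101 (25.8%), of which 18 turned sign, and F0C replicates 1 to 5 accounted for 21, 22, 30, 7 and 21. Among regions at 5 percent or more the share was 37.9%. Without the regions that 1 library carried, 582 higher and 291 lower regions remained, and 66.7% were higher.

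**Figure D3:**
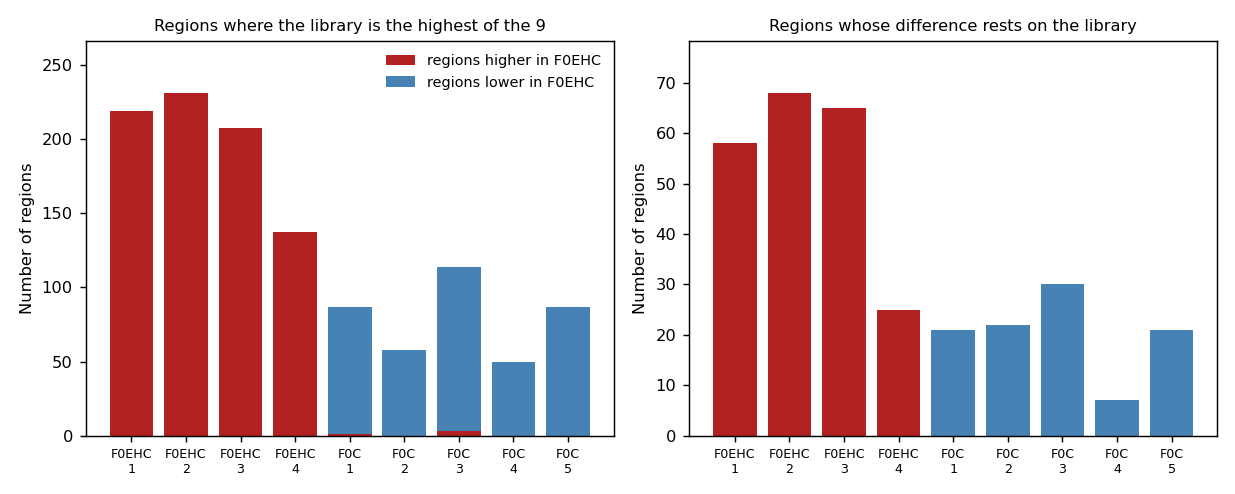
Number of regions in which each library had the highest value of the 9 (left) and in which leaving it out took away over 50 percent of the difference or reversed it (right), with regions higher in F0EHC in red and lower in blue. F0EHC replicates 1 to 3 are alike in both counts, and F0EHC replicate 4 has fewer.

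In most regions the higher group was raised in several birds. The regions were listed for this contrast from these same birds and then sorted by sign. Birds of the higher group therefore tend to lie above the other group by selection, and the counts are a description only. Among the 798 higher regions, all 4 F0EHC birds lay above every F0C bird in 158, 3 birds in 309, 2 birds in 260, 1 bird in 67 and none in 4. Among the 392 lower regions, all 5 F0C birds lay above every F0EHC bird in 72, 4 birds in 114, 3 in 121, 2 in 63 and 1 in 22. The groups thus did not overlap in 230 of 1190 regions (19.3%), against 7.79% of all listed regions. Non-overlap with F0EHC higher occurred in 13.3% of the 1190 (4.81% of all listed regions) and with F0EHC lower in 6.05% (2.99% of all listed regions). Leaving out a bird can only keep or add regions without overlap, and the count was 358 without F0EHC replicate 4 and at least 269 without any other bird. The matching shares over all listed regions were not computed, so these counts are no result about the nearly unmethylated regions.

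No region passed the limma test across the table. The study reported differentially methylated regions from the same sperm with another tool, metilene, whose test values were not used here. With limma on the percentages of all 6428 regions, 0% of regions had an adjusted p under 0.05, and the smallest adjusted p among the 1190 was 0.256. At an unadjusted limma p under 0.05 there were 497 of the 1190 regions (41.8%; 378 higher, 119 lower), against 19.2% of all listed regions (12.9% higher, 6.29% lower). The regions were listed for this contrast with few small differences, so unadjusted p values are low by selection. Values near 0 also leave less room for spread between birds. The shares of 41.8% and 19.2% are therefore a description and no independent evidence. Fits on a log2 scale with a pseudocount of 1 or 0.1 points also gave 0 regions after adjustment. Single differences below are therefore described by the values of the birds. Many of those regions were named by the size of their difference or picked after their values were seen. Their limma p values are not independent of that choice.

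Among the 10 regions with the largest differences in the F0EHC direction, 3 had groups without overlap. The region at chr3:3525446-3525496 (gene ID ENSGALG00000036869) had 2.92, 8.76, 19.3 and 6.67% in F0EHC birds, against 1.03, 1.40, 1.19, 0 and 1.39% in F0C birds, a difference of 8.40 ± 2.59 points (limma SE, adjusted p = 0.256). Every F0EHC bird was above the F0C birds, with replicate 3 far above the others, and without that bird the difference was 5.11. The next was a 261-bp region on an unplaced contig that holds a listed cytosine annotated by the study to the promoter of MOGS, the glucosidase that trims the first sugar from N-glycans. It had 3.09, 5.71, 13.2 and 10.7% in F0EHC birds and 2.83, 1.10, 1.31, 1.36 and 0% in F0C birds, with a difference of 6.86 points. The groups did not overlap there, although the lowest F0EHC bird and the highest F0C bird nearly met.

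The region at chr28:1458243-1458302 (ENSGALG00000037733) was the least variable of the 10. It had 2.73, 8.27, 8.34 and 5.98% in F0EHC birds, against 0.529, 0.275, 0.446, 0 and 0.433% in F0C birds, a difference of 5.99 ± 1.30 points (limma SE, unadjusted p = 0.000559, adjusted p = 0.256). All 5 control birds were under 1 percent, and the difference lay between 5.32 and 7.19 points whichever bird was left out. At chr13:15702988-15703024, F0EHC birds had 2.48, 9.85, 13.2 and 7.42%, against 3.13, 3.04, 1.19, 1.09 and 0.325% in F0C birds, and 3 of 4 F0EHC birds were above all controls. At chr3:3709499-3709559, annotated as a promoter, F0EHC birds had 8.04, 8.58, 0.545 and 9.68%, against 1.90, 0, 0.193, 0.568 and 0.433% in F0C birds. F0EHC replicate 3 lay among the controls there and the other F0EHC birds at about the same raised level.

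The remaining 5 of these regions were led by 1 or 2 birds. At chr13:10342139-10342193, F0EHC birds had 8.63, 3.26, 3.28 and 15.6%, against 0.275, 3.00, 4.21, 1.16 and 1.30% in F0C birds, and the difference of 5.71 points became 3.07 without F0EHC replicate 4. At chr5:57231788-57231847 the difference of 5.93 points became 1.95 without F0EHC replicate 4, whose value was 18.5%, while F0EHC replicates 1 and 2 were at 0; F0C replicate 4 was missing there. F0EHC replicate 3 alone reached 24.1% at chr2:41020006-41020074, where the other 8 birds were between 0.196 and 1.43%, and the difference of 5.89 points became 0.0873 without it. F0EHC replicate 2 alone reached 22.5% at chr28:3962777-3962856, where the difference of 5.76 points became 0.796 without it. The region next to gga-mir-1780, described with its neighbours below, was of the same kind.

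Among the 8 regions with the largest differences in the other direction, 4 rested on 1 control bird. At chr11:16751217-16751266, F0C replicate 1 had 27.4% and the difference of −6.16 points was −1.01 without it. At chr1:153548723-153548774, F0C replicate 2 had 28.6% and the difference of −5.44 was −0.0510 without it. On a contig assigned to chromosome 1, F0C replicate 4 had 25.0% (difference −5.57, and −0.865 without it), and on one assigned to chromosome 19, a 625-bp region, F0C replicate 5 had 28.2% (difference −5.06, turning to 0.261 without it). In each of these the other 8 birds were under 3.2 percent.

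The other 4 of them were raised in several control birds. At chrZ:31971915-31972095 (ENSGALG00000015105), F0EHC birds had 0.833, 0, 0 and 0.709%, against 1.0, 7.61, 19.0, 7.32 and 1.03% in F0C birds, a difference of −6.81 ± 3.02 points (limma SE, adjusted p = 0.256). The groups did not overlap, but 2 of the 5 control birds were only just above the F0EHC birds, and without F0C replicate 3 the difference was −3.85. At chr33:1576817-1576876 all F0EHC birds were at 0, and the F0C birds had 12.5, 13.2, 0 and 0% with replicate 1 missing. The difference of −6.42 points there was −4.17 without F0C replicate 3. At chr2:76381284-76381357, F0EHC birds had 0.606, 0, 0 and 5.24%, against 6.14, 12.5, 4.06, 7.28 and 1.10% in F0C birds. The groups overlapped there through F0EHC replicate 4 alone, which lay above F0C replicates 3 and 5. At chr23:5305173-5305199 the F0EHC birds had 0.627, 2.22, 1.06 and 1.43%, against 3.33, 6.86, 10.6, 0.857 and 12.5% in F0C birds. That region holds 2 listed cytosines, the strands of 1 CpG, annotated to the promoter of FNDC5, which encodes the precursor of the muscle hormone irisin. Of its control birds, 4 of 5 were above all F0EHC birds.

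**Figure D4:**
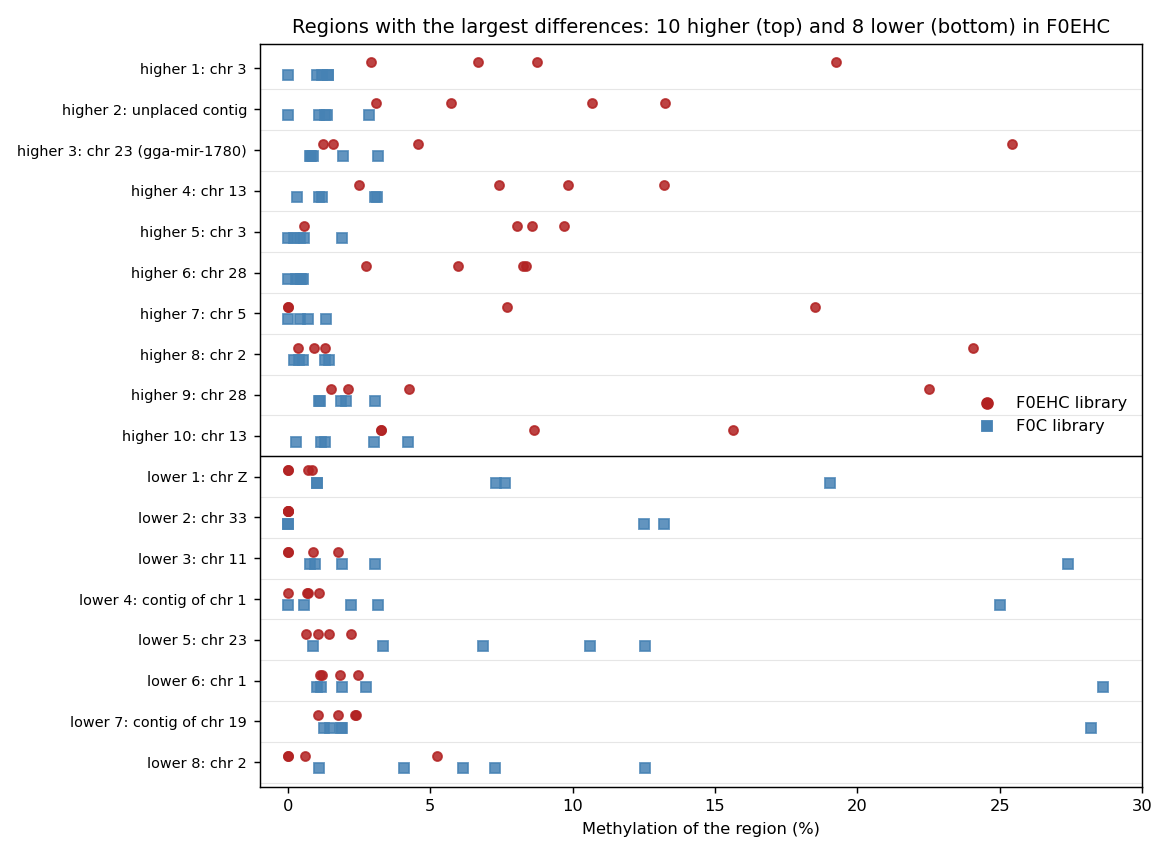
Methylation in percent of the 10 regions with the largest positive (top) and the 8 with the largest negative (bottom) difference, numbered by size, with red circles for F0EHC libraries and blue squares for F0C libraries. The regions fall into those with several raised birds and those with 1 bird above 20 percent and the others near 0.

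Names were available for few regions. A gene ID, that of the nearest gene as the authors attached it, stood beside 1179 of the 1190 regions, with 1064 different IDs. The study's own lists, of annotated sperm regions and of genes changed in expression after a microRNA injection, pair 50 of these IDs with a symbol. That covers 60 regions, 49 higher and 11 lower in F0EHC. Those regions are mostly ones that the study had annotated because of this contrast, so their split of directions is not that of a random draw, and for the other regions no symbol is given. Of 44 regions with an annotated feature (39 higher, 5 lower), 18 were called promoter, 11 intron, 11 intergenic, 3 exon and 1 transcript end. These features were read only from the study's list of regions it reported as differentially methylated. Their mix is therefore no result about the 1190 regions.

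Of the list of developmental transcription factor families, 6 listed regions at 3 genes carried a symbol, and all 6 were nearly unmethylated, against 18.5% of all listed regions. With only 3 genes, each named through the study's own lists, that share is no result about this list. All 6 had the higher mean in F0EHC, beside 49 of the 60 regions with a symbol, so their direction is no result about this list, and none passed the adjusted test. SIX4, a homeobox factor of muscle and sensory organ development, had 2 such regions. At chr5:54464974-54465021, in an exon, F0EHC birds had 4.53, 3.22, 3.59 and 2.23% and F0C birds 0.553, 0.563, 0.587, 1.77 and 0.655%. At chr5:54465097-54465315, F0EHC birds had 4.65, 3.36, 4.98 and 3.16% and F0C birds 1.48, 2.06, 0.492, 0.640 and 0.835%. The groups did not overlap in either. In the first, F0C replicate 4 stood above the other control birds.

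FOXB2, a forkhead factor of the embryonic nervous system, had 3 regions on chromosome Z, all 3 with overlapping groups. At chrZ:37557198-37557257, F0EHC birds had 11.9, 9.06, 4.17 and 5.44%, against 3.79, 3.11, 5.23, 1.11 and 0.385% in F0C birds. The other regions, at chrZ:37558009-37558055 and chrZ:37560732-37560795, differed by 2.32 and 2.29 points, and the last by 1.26 without F0EHC replicate 1. LHX3, a LIM-homeobox factor of the pituitary and motor neurons, had 1 intronic region at chr17:8530837-8531142. It had 5.80, 2.36, 8.71 and 2.85% in F0EHC birds, against 3.91, 0.361, 1.10, 1.30 and 1.04% in F0C birds. A single control bird, replicate 1, produced the overlap, and without F0EHC replicate 3 the difference of 3.39 was 2.13.

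Homeobox genes outside that list had regions in both directions. DLX2, a factor of forebrain and jaw development, had a promoter region at chr7:17917364-17917397 with 4.57, 2.49, 4.81 and 2.57% in F0EHC birds and 1.08, 0.848, 1.16, 1.44 and 0.780% in F0C birds. Its groups were apart, whereas in a region of the same gene at chr7:17917726-17917861 F0EHC replicate 3 (1.28%) lay among the controls and the difference was 3.56. MSX2, a factor of limb and skull development, was named by a listed cytosine in the region at chr13:9808201-9808262, which was lower in F0EHC by the means. It had 2.21, 3.06, 1.41 and 1.78% in F0EHC birds and 2.23, 3.42, 6.94, 7.05 and 4.55% in F0C birds, so that 4 of 5 control birds were above all F0EHC birds, and the difference was −2.73 points. A second region under the same gene ID, at chr13:9808455-9808783, went the other way by 5.65 points, with 9.23, 1.25, 6.80 and 10.95% in F0EHC birds and 1.44, 0.641, 0.513, 1.47 and 2.98% in F0C birds. F0EHC replicate 2 lay among the controls there. Both genes were chosen after their values were seen.

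Further genes were picked after their values were seen, and no list or test stands behind the choice. SUV39H2, a histone H3 lysine methyltransferase that makes repressive chromatin, had 4.65, 6.31, 4.29 and 3.60% in F0EHC birds and 0.344, 0.447, 0, 0.833 and 1.05% in F0C birds at its promoter, chr1:7449214-7449288. The difference was 4.17 ± 0.993 points (limma SE, unadjusted p = 0.00117, adjusted p = 0.256), and it lay between 3.64 and 4.55 with any bird left out. DAZL, an RNA-binding protein needed by germ cells, had 7.34, 7.78, 1.77 and 5.50% in F0EHC birds and 1.44, 1.52, 0, 0 and 0.694% in F0C birds at an intronic region, chr2:34515224-34515274. The difference was 4.87 ± 1.34 points (limma SE, adjusted p = 0.256), and F0EHC replicate 3 was only just above the highest control. HMGI-C, an older name of HMGA2, a chromatin architectural protein of embryonic cells, had 5.00, 1.28, 1.85 and 3.32% in F0EHC birds and 0.688, 0.196, 0.200, 0.290 and 0.385% in F0C birds at its promoter, chr1:34204028-34204068. No control bird there reached 1 percent. JMJD1C, of a family of histone demethylases, had overlapping groups at chr6:7840651-7840873, with 5.84, 10.3, 3.07 and 1.08% in F0EHC birds and 2.66, 1.49, 0.560, 0.752 and 1.65% in F0C birds.

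Of other regions picked in the same way, all higher in F0EHC, several leaned on part of the birds. TLE1, a Groucho corepressor, had 1.20, 5.30, 7.11 and 6.08% in F0EHC birds and 1.73, 0.771, 0.938, 0.154 and 0% in F0C birds at its promoter, chrZ:39254378-39254445, where F0EHC replicate 1 lay among the controls. EPHB1, a receptor for ephrins in axon guidance, had 0.755, 4.18, 3.55 and 4.07% in F0EHC birds and 0.641, 0.220, 0, 0 and 0.592% in F0C birds at its promoter, chr9:3707994-3708223. CCND1, the G1 cyclin D1, had adjacent regions at chr5:17527290-17527366 and chr5:17527510-17527555 that differed by 2.64 and 2.58 points, the first by 1.34 without F0EHC replicate 3. RBPJ, the DNA-binding partner of Notch, differed by 4.57 points at chr4:73771908-73771971 but by 1.60 without F0EHC replicate 1, which had 14.1%.

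The heat shock and immune signalling lists matched few listed regions, too few to set their share of nearly unmethylated ones against the 18.5% of all listed regions. The heat shock list matched 3 listed regions, of which 1 was nearly unmethylated. HSP90B1, the endoplasmic reticulum chaperone also called GRP94, had 0, 0, 0.455 and 0.385% in F0EHC birds and 4.77, 5.70, 6.99, 0 and 1.46% in F0C birds at chr1:54769545-54769587, a difference of −3.57 ± 1.44 points (limma SE, adjusted p = 0.256). It was lower in F0EHC, and F0C replicate 4 was also at 0. The immune signalling list matched 7 listed regions, of which 1, at STAT3, was nearly unmethylated. STAT3, a transcription factor of cytokine signalling, had 5.56, 0.515, 2.51 and 4.31% in F0EHC birds and 1.54, 0.514, 0, 0.611 and 0.572% in F0C birds at chr27:5334775-5334820, with overlapping groups. The DNA methylation machinery list matched 0 listed regions by symbol. For regions, the study's lists paired a symbol with only 157 gene IDs, so the matches depend on which genes those lists hold. In each list the count of regions past the adjusted test was 0.

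Regions lower in F0EHC with a symbol numbered 11. Among them, SCG3 and MSI2 were picked after their values were seen. SCG3, secretogranin III of hormone granules, had 0.817, 0.762, 1.27 and 1.05% in F0EHC birds and 3.86, 8.31, 5.21, 4.63 and 4.31% in F0C birds at its promoter, chr10:9116937-9117006. The groups were well apart and the difference was −4.29 ± 1.20 points (limma SE, unadjusted p = 0.00370, adjusted p = 0.256), between −4.64 and −3.53 with any bird left out. MSI2, an RNA-binding protein of stem cells, had 0.893, 1.67, 1.88 and 2.52% in F0EHC birds and 6.65, 4.39, 7.29, 2.41 and 8.01% in F0C birds at chr19:8981729-8981796. The highest F0EHC bird and the lowest control bird, replicate 4, crossed there by about 0.1 points.

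Several genes had more than 1 of these regions. Of the 94 gene IDs with at least 2, 47 had only higher regions, 12 only lower ones and 35 had both. The ID with the most was ENSGALG00000016245, with 9 regions over 30.9 kb of chromosome 1, at chr1:112353150-112384005, where 21 listed regions carry the ID. Of the 9, 4 were higher and 5 lower in F0EHC, between −2.89 and 3.87 points. One of the lower ones, at chr1:112373960-112374039, had 1.38, 1.29, 1.38 and 1.31% in F0EHC birds and 3.25, 5.34, 4.13, 3.04 and 2.17% in F0C birds, so that the groups were apart, while the next region, at chr1:112374519-112374760, had 1.58, 8.86, 4.11 and 5.37% in F0EHC birds and 0, 0.882, 1.05, 2.88 and 0.909% in F0C birds. Opposite directions thus stood side by side at 1 locus.

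At 2 other IDs the neighbouring regions shared their direction and the same single bird was raised in all of them. The 3 regions beside gga-mir-1780, a chicken microRNA gene, lie within 0.782 kb of chromosome 23. F0EHC replicate 3 had 20.5, 23.8 and 25.4% in them, at chr23:5054475-5054623, chr23:5055137-5055212 and chr23:5055213-5055256. The differences of 4.82, 4.80 and 6.68 points became 0.403, −0.738 and 0.943 without that bird. At ENSGALG00000007608, 3 regions within 0.325 kb of chromosome 4 (chr4:11821030-11821354) were lower in F0EHC, and F0C replicate 2 had 15.6, 16.9 and 15.1% in them. In both stretches the other 8 birds were under 5 percent.

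Dense neighbourhoods of nearly unmethylated regions were few and mixed in direction. Joined over gaps of up to 20 kb, 4 neighbourhoods had 5 or more. A stretch of 73.3 kb at chr2:32630020-32703310 held 9 of its 13 listed regions (6 higher, 3 lower) under 6 gene IDs, and regions just beyond it on the chromosome hold cytosines annotated to HOXA11-AS1_5 and HOTTIP_2, names of non-coding RNAs of the HOXA cluster. The stretch at chromosome 1 is the one described for ENSGALG00000016245. One of 46.8 kb at chr7:16358868-16405630 held 8 of 9 listed regions (4 higher, 4 lower). The unplaced contig with the MOGS region held 6 of 8 in 20.9 kb (5 higher, 1 lower), among them regions with cytosines annotated to Lbx3, a homeobox gene name.

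Most of the regions stood alone. Joined over at most 500 bp they formed 1138 stretches, of which 47 held 2 or more regions, with 4 at most. Of these 47, 22 were all higher, 5 all lower and 20 mixed. Within 1 kb of 122 of the 1190 regions (10.3%) lay a listed region of 5 percent or more, and of the 159 such pairs 91 (57.2%) had the same sign. The direction at a nearly unmethylated region and at its neighbour of 5 percent or more thus matched in little more than an even share of pairs.

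The regions made up a larger share of the listed regions on large chromosomes and on Z. Chickens have a few large chromosomes, many small gene-dense microchromosomes, and males with a pair of Z. On chromosomes 1 to 5, 460 of 1386 listed regions (33.2%) were nearly unmethylated, on 6 to 10 it was 186 of 862 (21.6%), on microchromosomes 423 of 3208 (13.2%), on Z 54 (37.2%) and on unplaced or random contigs 67 of 826 (8.11%). The share higher in F0EHC was alike in these classes, at 68.3%, 63.4%, 67.1%, 68.5% and 67.2%. Single chromosomes varied more. Chromosome 5 had 67 higher and 18 lower regions, chromosome 13 had 27 and 6, chromosome 27 had 18 and 4, and chromosome 21 had 14 and 1, whereas chromosome 26 had 9 and 9 and chromosome 33 had 5 and 9. No test was made of these splits.

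**Figure D5:**
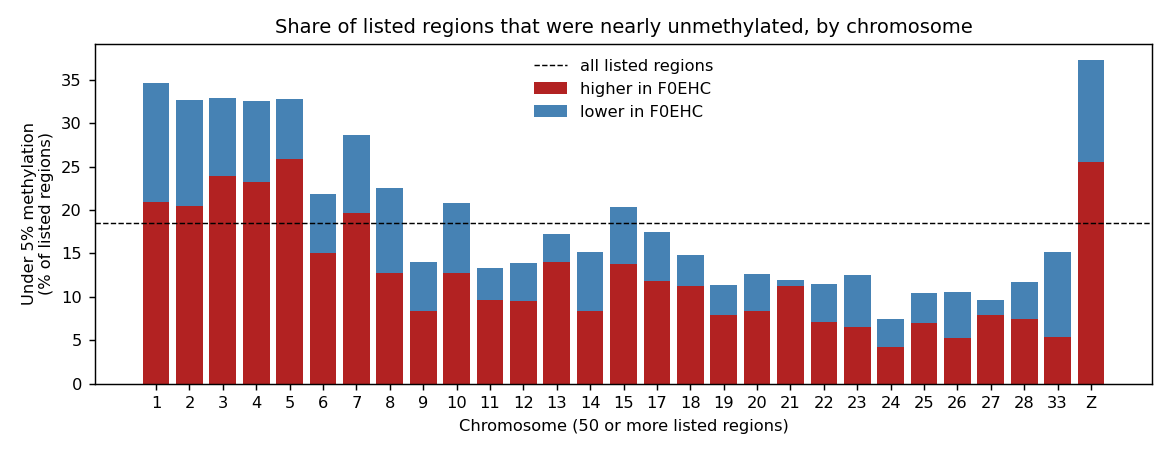
Percent of listed regions that were nearly unmethylated on each chromosome with 50 or more listed regions, split into regions higher (red) and lower (blue) in F0EHC, with the share over all listed regions (18.5%) as a dashed line. Chromosomes 1 to 8, 10, 15 and Z stand above the line and the other plotted chromosomes under it.

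The nearly unmethylated regions were shorter than the others. Their median length was 61 bp (quartiles 44 and 85, longest 625), against 76 bp for the regions at 5 percent or more. Higher and lower regions were alike, with medians of 60 and 62 bp.

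Read counts were available for 29 listed single cytosines in 21 of the regions (12 higher, 9 lower), out of 1286 listed cytosines. Some of them stand at adjoining positions, which are both strands of the same CpG and not separate sites. These sites were listed by the study for this contrast, so their direction is not independent, and all 29 had the sign of their region. Their median depth was 21 to 100 reads, with 11 reads at least and 140 at most in a library. The median absolute difference was 10.2 points at the sites and 3.78 points at the regions that hold them, so the listed sites differed by more than the average of their region. Intervals and limits given here are for counting error only, since the reads carry no molecular identifiers.

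At some sites every bird of a group was unmethylated. In the CLDND1 promoter, at chr1:83183278, the 4 F0EHC birds had 0 of 35, 0 of 35, 0 of 39 and 0 of 31 reads, which allows up to 9.68% in the shallowest. The F0C birds had 3 of 21, 1 of 17, 5 of 29, 1 of 27 and 2 of 38 methylated reads. With at most 38 reads in each F0C bird, the 95% Wilson interval of the highest control (17.2%) ran between 7.60 and 34.5%. Its lower end was thus under the 9.68% allowed in the shallowest F0EHC bird. Single birds were not tested against each other. CLDND1 encodes a claudin domain protein, and its region at chr1:83183278-83183319 differed by −4.72 points.

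The deepest listed site lay between genes at chr1:78652566, in a region that differed by −3.20 points. F0EHC birds had 0 of 127, 4 of 140, 4 of 110 and 0 of 100 methylated reads there, against 5 of 75, 16 of 99, 8 of 96, 13 of 83 and 21 of 105 in F0C birds. Every control bird had the higher share, with 6.67% as the lowest control and 3.64% as the highest F0EHC bird.

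The reverse pattern occurred at chr15:7051797, near GRK3, the gene of a kinase that acts on G protein-coupled receptors. F0EHC birds had 2 of 37, 3 of 21, 2 of 25 and 4 of 26 methylated reads there and F0C birds 0 of 24, 0 of 42, 0 of 28, 0 of 18 and 0 of 30. At the MOGS promoter site on the unplaced contig, F0EHC birds had 2 of 31, 2 of 18, 5 of 21 and 6 of 20 methylated reads and F0C birds 0 of 17, 0 of 49, 0 of 22, 0 of 19 and 0 of 21. At the HOXA11-AS1_5 site, chr2:32730529, F0EHC birds had 2 of 27, 2 of 36, 1 of 33 and 13 of 52, and F0C birds 0 of 38, 0 of 35, 0 of 29, 0 of 29 and 0 of 21. All F0EHC birds carried methylated reads at these 3 sites and no F0C bird did. At the HOXA11-AS1_5 site most of the methylated reads were those of F0EHC replicate 4. That bird had 13.8% over the region that holds the site, against 1.67 to 2.73% in the other F0EHC birds. A count of 0 in the shallowest F0C bird, 0 of 17 at the MOGS site, allows up to 17.6%. That is above the 6.45% of F0EHC replicate 1 there. These 3 sites were picked after their values were seen.

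Some of the regions led by 1 bird hold listed sites, where the reads of that bird can be given. These sites were listed with at least 8 reads in every bird and as different between the groups. They therefore say nothing of the depth behind the other regions led by 1 bird. At chr23:5055213 beside gga-mir-1780, F0EHC replicate 3 had 18 of 41 methylated reads (43.9%, 95% Wilson interval 29.9 to 59.0%), against 4 of 85, 0 of 83 and 2 of 64 in the other F0EHC birds and 1 of 40, 0 of 61, 0 of 52, 0 of 52 and 1 of 63 in F0C birds. In the 625-bp region on the chromosome 19 contig, F0C replicate 5 had between 22 and 26 of 58 reads methylated at the 4 listed cytosines. The F0EHC birds had 0 to 2 methylated reads at each of them and the other F0C birds 0 or 1. At HOTTIP_2, chr2:32752703, F0C replicate 2 had 19 of 61 reads (31.1%, 95% Wilson interval 20.9 to 43.6%), against 0 of 46, 0 of 53, 0 of 73 and 0 of 88 in F0EHC birds and 4 of 75, 0 of 56, 0 of 93 and 2 of 54 in the other F0C birds. The adjoining position, chr2:32752704, is the other strand of the same CpG. F0EHC birds had 0 of 33, 1 of 79, 0 of 85 and 0 of 88 methylated reads there. F0C birds had 0 of 65, 10 of 41, 6 of 62, 2 of 74 and 4 of 69, so that other control birds carried methylated reads there too.

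A low region average also held a cytosine raised in several birds. At the MSX2 site, chr13:9808242, F0EHC birds had 1 of 49, 2 of 27, 0 of 28 and 0 of 51 methylated reads, against 1 of 53, 1 of 55, 13 of 39, 20 of 48 and 11 of 37 in F0C birds. The site reached 41.7% in F0C replicate 4 (95% Wilson interval 28.8 to 55.7%), while the F0C mean of its region was 4.84%.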

How the data were processed

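RRBS libraries of 9 birds were made with the Zymo-Seq kit. The submitters' processing notes name Trim Galore, Bismark with Bowtie, edgeR and galGal5, and the study names metilene for regions. The region table holds the percent methylation of each region and library, deposited by the authors as averages without depth. The site table holds methylated and unmethylated read counts deposited by the authors, with the percent they computed, for cytosines with at least 8 reads in every bird that they called different. Columns of the authors' own tests (differences, p and q values) were not used.

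Coordinates are galGal5, 1-based, with region starts moved by 1 because 30 listed cytosines stood at the file start plus 1 and 5 at the file start itself. Spreadsheet errors (31, all in F0C; 13 in the 1190 regions) were missing values. Groups came from sample titles. The regions, gene lists and tests were chosen with earlier results of these data known. Differences are F0EHC minus F0C. limma 3.58.1 (R 4.3.3, trend over level) was fitted on all 6428 regions with Benjamini-Hochberg adjustment. Regions named by rule were the 10 higher and 8 lower with the largest differences, up to 6 with the most listed sites, gene IDs with 3 or more regions (up to 8, in part summarised) and those at the limit. Other genes were picked after their values were seen. Symbols came from the study's own lists, because the RefSeq table used had 0 Ensembl IDs. These were its annotated sperm regions and sites, and the genes it reported as changed in the hypothalamus after injection of a microRNA. No galGal5 genome was used here, so no sequence is shown. A result of 1 gene is not reported here. Birds with the same replicate number did not deviate together (correlation −0.0561 to 0.0704 over all regions), so the numbers were not taken as pairs. Alternatives were other level limits, equal weight of groups, medians, missing values left out, log2 scales, a replicate block, chromosomes left out and each bird left out.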

Additional observations from a re-analysis of the deposited data

Results flagged for a closer look

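Dixon's gap was computed for 96 groups of 4 or 5 birds (levels over regions, 40 named regions and the listed sites), which gave 23 cases of a bird apart from the rest. Chance alone marks about 1 group in 20 of independent groups drawn without selection, which is no yardstick here, since many groups were chosen for large differences or after their values were seen, share the same 9 birds and have values that stop at 0. Over all 1190 regions and over the 798 higher ones, F0EHC replicate 4 was low, at 2.94% and 3.70%, and over the 392 lower ones F0EHC replicate 2 was low, at 1.28%.

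F0EHC replicate 3 was high at the gga-mir-1780 regions starting at 5055213 (25.4%, and 39.0% in the pooled listed sites) and 5054475 (20.5%), at chr2:41020006 (24.1%) and at the first CCND1 region (7.49%). F0EHC replicate 2 was high at chr28:3962777 (22.5%) and at the HOTTIP_2 sites (0.758%). F0EHC replicate 4 was high at chr2:76381284 (5.24%), and F0EHC replicate 1 was low, at 0%, in the FOXB2 region starting at 37558009.

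F0C replicate 1 was high at chr11:16751217 (27.4%), LHX3 (3.91%), RBPJ (2.44%) and the FOXB2 region starting at 37560732 (3.45%). F0C replicate 2 was high at chr1:153548723 (28.6%) and at the HOTTIP_2 sites (28.4%). F0C replicate 4 was high on the chromosome 1 contig (25.0%) and at the first SIX4 region (1.77%), and low at chr3:3525446 (0%). F0C replicate 5 was high on the chromosome 19 contig (28.2%, and 40.5% in the pooled listed sites).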

How the results depend on the processing

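With a level limit of 2 percent there were 150 higher and 48 lower regions (75.8% higher), a mean difference of 1.53 points and 61 regions without overlap, and with a limit of 10 percent 1055 higher and 641 lower (62.2% higher). Without F0EHC replicate 4, 358 regions had no overlap, and with each bird left out in turn the number was 269 to 358, the count of higher regions 787 to 803 and the mean difference 1.03 to 1.32 points. limma called 0 of these 1190 regions in each fit, the replicate block included. In the fit given above, 497 of them had an unadjusted p under 0.05. With the replicate block, in which F0C replicate 5 had a block of its own, the smallest adjusted p was 0.342 and 200 regions had an unadjusted p under 0.05. The share over all listed regions was not computed for that fit, so the 200 are no result about the nearly unmethylated regions. Of 198 alternative values for the 18 regions of largest difference, 195 kept their sign, and the exceptions were the chromosome 19 contig region at 0.195 points as a difference of medians, 0.261 with the replicate block and 0.261 without F0C replicate 5 (−6.48 to 0.261 with each bird left out). The other counts and levels kept their direction and stayed within 1.5 times the value, or within 1 SD for the mean level, under equal weight of groups, medians, missing values left out, and without contigs or chromosomes Z and W. The count without regions that 1 library carries was added after seeing the data. Region depth is unknown, so counting error at single regions could not be given.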
